A study of Rattus norvegicus with 60 samples.

Results

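The comparison described here is that of the frontal cortex of rats given permethrin at 100 mg/kg with that of rats given the corn oil vehicle. Its samples were taken by their titles, 8 for permethrin 100 mg/kg and 12 for vehicle, which is 20 of the 60 arrays of the series, and all 31042 probe sets of the array were used. All rats were adult male Long-Evans rats, 62 to 64 days old. Each received its dose once by oral gavage in corn oil, vehicle rats received the oil alone, and cortex was taken 6 h later. Each array held the RNA of 1 rat. The other 40 arrays came from rats given permethrin at 1 or 10 mg/kg or deltamethrin at 0.3, 1 or 3 mg/kg, with 8 rats at each dose. They entered the estimate of the spread between rats and are cited below only where they are set beside the 100 mg/kg group. The question of the study was which transcripts respond to pyrethroids with dose. At its highest permethrin dose the question becomes which transcripts differ from vehicle.

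Pyrethroids are insecticides that slow the closing of voltage-sensitive sodium channels, so that neurons fire more readily or repeatedly. Permethrin lacks the alpha-cyano group that deltamethrin carries and is classed with the type I compounds. When neurons fire, calcium enters and kinases phosphorylate transcription factors such as CREB, which binds the cyclic AMP response element. Immediate early genes (Fos, Egr and Nr4a families among them) are then transcribed within minutes, and a later set that holds secreted peptides and growth factors such as Bdnf follows.

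The values were log2 intensities, so a difference of 1 means a doubling, and levels of different probe sets were not compared. They ran from 3.75 to 14.1, with array medians of 7.09 to 7.20 in vehicle rats and 7.08 to 7.19 in permethrin rats. Over all 60 arrays the first principal component held 58% of the variance. Among the 20 arrays compared, vehicle replicates 4 and 5 and permethrin replicates 2 and 3 stood apart on it, and the main results are given with and without these 4. The arrays also fell into groups of 24 and 36, found from the leading components and not named in the labels. The first held 6 vehicle and 3 permethrin 100 mg/kg rats and the second held 6 and 5. All 4 arrays that stood apart were in the first group, so permethrin replicates 2 and 3 are among its 3 permethrin rats. Values within the first group and values without the 4 arrays are therefore not separate checks. The study exposed its animals in cohorts on separate days, and the group sizes of the cohorts it put on arrays equal these. The labels tie no array to a cohort, so the array groups are kept as found. Whole tissue was measured, so fewer cells of a type and less RNA per cell cannot be told apart.

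No transcript passed the threshold for a difference between permethrin 100 mg/kg and vehicle once p-values were adjusted for all probe sets. With limma, 0 of 31042 probe sets (0%) had a Benjamini-Hochberg adjusted p under 0.05, and the lowest adjusted p was 0.486. At an unadjusted p under 0.05, 274 probe sets were higher (0.883%) and 110 were lower (0.354%), 384 in all (1.24%), which is fewer than the 5% that such a threshold passes when nothing differs. Differences were small. None exceeded 2-fold and 6 exceeded 1.5-fold, with a median standard error of 0.08 on the log2 scale. For no probe set did the 8 permethrin rats and the 12 vehicle rats separate without overlap. Without the 4 arrays that stood apart, 0 probe sets were called, 182 were higher (0.586%) and 112 lower (0.361%) at an unadjusted p under 0.05. With the array group as a block the counts were 533 and 254. Leaving out single rats moved these counts, to 727 higher and 230 lower without permethrin replicate 1 and to 432 and 179 without vehicle replicate 4. All differences named below are therefore values with their errors and not called changes. Every gene named had an adjusted p of at least 0.638 by limma, and unadjusted p-values are from the same fit. With array weights, which count arrays that scatter more for less, 10 probe sets were called (0.0322%), as given in the section on processing choices.

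**Figure D1:**
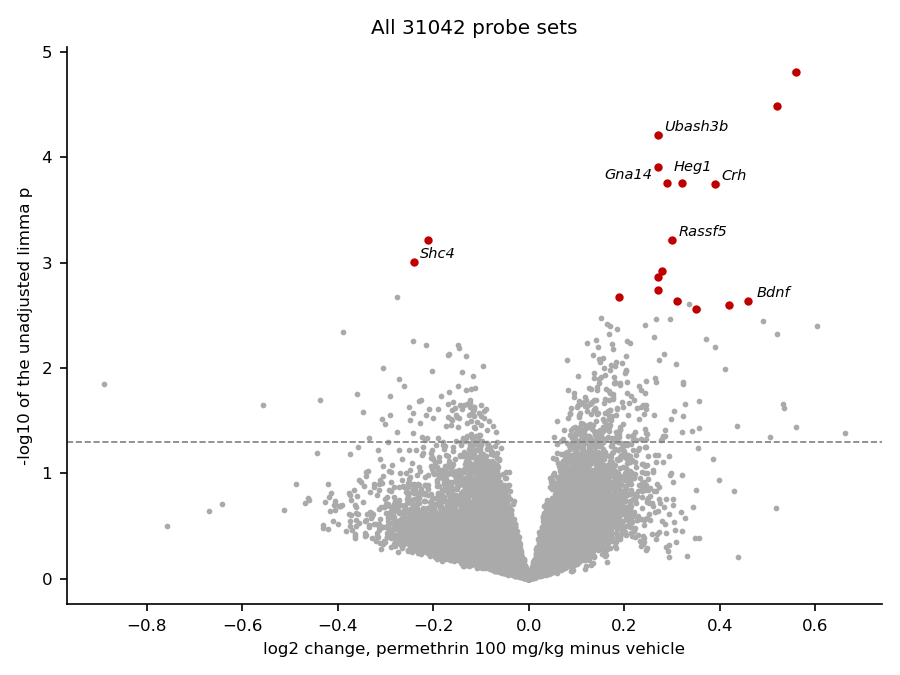
Each point is a probe set, with its log2 difference between permethrin 100 mg/kg and vehicle (x axis) and the negative log10 of its unadjusted limma p (y axis); red points are the described probe sets among the 20 with the lowest p, and the dashed line is an unadjusted p of 0.05. The points above the unadjusted threshold lie more to the right (274) than to the left (110), and none passed the adjusted threshold.

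Among the genes that neurons transcribe late after activity, Crh, which encodes corticotropin-releasing hormone, the peptide that starts the stress hormone axis and is also made by cortical interneurons, had the lowest p. Crh in vehicle rats had a lowest value of 6.71, a median of 6.96 and a highest of 7.25, and in permethrin rats 7.07, 7.41 and 7.67. All 8 permethrin rats were above the vehicle mean and 6 were above the highest vehicle rat. The log2 difference was 0.39 (SE 0.10, 95% interval 0.20 to 0.59), or 1.31-fold (unadjusted p = 0.000181, limma adjusted p = 0.803). It was 0.39 within each array group and 0.45 without the 4 arrays that stood apart.

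Bdnf, which encodes brain-derived neurotrophic factor, a growth factor that supports synapses, ran over 6.11, 6.63 and 7.07 (lowest, median, highest) in vehicle rats and 6.65, 7.07 and 7.82 in permethrin rats on the probe set that was brighter over all 60 arrays. The groups overlapped, with 8 of 8 permethrin rats above the vehicle mean and 4 above the highest vehicle rat. The log2 difference was 0.46 (SE 0.14, 95% interval 0.17 to 0.74; unadjusted p = 0.00231, limma adjusted p = 1). It was 0.37 and 0.54 within the array groups and 0.51 without the 4 arrays. With the array group and the first component both in the fit it was 0.60, the 1 call of that fit. The other Bdnf probe set differed by 0.06 (SE 0.04). It was the brighter of the pair in vehicle rats, with a mean of 6.71 against 6.63. Camk1g, a neuronal calcium/calmodulin-dependent kinase, was 0.31 (SE 0.10) and 0.49 (SE 0.16) higher on its 2 probe sets. Its brighter probe set ran over 8.86, 9.19 and 9.42 in vehicle rats and 9.11, 9.53 and 9.87 in permethrin rats, with 5 of the latter above every vehicle rat. Adcyap1, the precursor of the neuropeptide PACAP, had a narrow difference of 0.13 (SE 0.05, unadjusted p = 0.016), with all 8 permethrin rats above the vehicle mean but 1 above the highest vehicle rat.

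The list of late activity-regulated genes held 16 that were measured, each taken by its brightest probe set. Of these 4 (Crh, Bdnf, Camk1g and Adcyap1) were higher at an unadjusted p under 0.05 and 0 lower, where 1.03% of all 14217 genes were higher and 0.204% lower, and 0 were called (0% of all genes). With each gene taken by its brightest probe set in vehicle rats, Bdnf left the count and 3 of 16 were higher, beside 1.03% of all genes. The list was drawn up with earlier results of these data known. The study had already selected Crh and Bdnf for permethrin on these same arrays. It selected Camk1g for deltamethrin, in an analysis that shared only the vehicle arrays with this comparison. The count is partly fixed by these choices and is not a test. The list's median log2 difference was 0.05, beside 0.02 over all genes, so most members lay near the bulk of genes. Inhba, a subunit of activin, was 0.35 higher (SE 0.24, p = 0.143). Vgf, the precursor of secreted neuropeptides, was 0.21 higher (SE 0.16, p = 0.191). Camk1g also stands in the list of calcium/calmodulin signalling genes, where it was the only member of 15 at an unadjusted p under 0.05, and the kinase subunits Camk2a and Camk2b differed by -0.24 (SE 0.25) and 0.02 (SE 0.04).

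The immediate early genes showed wider spreads between rats. Fosb, a subunit of the AP-1 transcription factor, ran over 6.32, 6.66 and 7.53 in vehicle rats and 6.70, 7.05 and 7.96 in permethrin rats. Its log2 difference was 0.52 (SE 0.18, p = 0.00479), with 7 of 8 permethrin rats above the vehicle mean and 3 above the highest vehicle rat. Egr4, a zinc finger transcription factor, ran over 8.51, 8.64 and 9.38 against 8.63, 8.99 and 9.56, a difference of 0.32 (SE 0.13, p = 0.0136). Egr2, of the same family, had the broadest range of the 3, 5.35, 5.77 and 7.17 against 5.57, 6.34 and 8.11. It was 0.53 higher (SE 0.23, p = 0.0241), but 5 of 8 permethrin rats were above the vehicle mean, and the difference was 0.10 in the first array group and 0.92 in the second. On second probe sets Egr2 differed by 0.11 and Egr4 by 0.04. Within the array groups the differences were 0.41 and 0.59 for Fosb and 0.30 and 0.38 for Egr4. The adjusted p of all 3 was 1 by limma. Without the 4 arrays that stood apart the differences were 0.61 for Fosb, 0.32 for Egr4 and 0.61 for Egr2.

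The promoters of these immediate early genes are shown because CREB, named above, binds the cyclic AMP response element. That of Vgf is shown because it holds a complete element, though Vgf was not at an unadjusted p under 0.05. Elements other than this one and the Egr site were not looked for. The sequences are from RefSeq (build GRCr8, all on the minus strand, 250 bases before to 50 after the gene's start). Capitals mark the element TGACGTCA or its shortened form TGACG, which may lie on the opposite strand and was looked for after the values had been seen. The array measured RNA, and nothing here measured binding.
Fosb (chr1:88089135-88089434): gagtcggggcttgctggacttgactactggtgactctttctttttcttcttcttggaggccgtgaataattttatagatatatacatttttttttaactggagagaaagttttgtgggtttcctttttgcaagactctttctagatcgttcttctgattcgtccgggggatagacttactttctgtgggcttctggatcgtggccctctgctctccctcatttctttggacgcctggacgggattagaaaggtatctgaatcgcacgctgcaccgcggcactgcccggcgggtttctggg
Egr2 (chr20:21054392-21054691): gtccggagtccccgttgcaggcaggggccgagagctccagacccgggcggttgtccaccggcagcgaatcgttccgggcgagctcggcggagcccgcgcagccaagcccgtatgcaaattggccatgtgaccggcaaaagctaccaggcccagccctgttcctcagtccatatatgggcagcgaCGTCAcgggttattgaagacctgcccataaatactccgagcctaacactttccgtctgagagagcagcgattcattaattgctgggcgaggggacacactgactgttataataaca
Egr4 (chr4:119607768-119608067): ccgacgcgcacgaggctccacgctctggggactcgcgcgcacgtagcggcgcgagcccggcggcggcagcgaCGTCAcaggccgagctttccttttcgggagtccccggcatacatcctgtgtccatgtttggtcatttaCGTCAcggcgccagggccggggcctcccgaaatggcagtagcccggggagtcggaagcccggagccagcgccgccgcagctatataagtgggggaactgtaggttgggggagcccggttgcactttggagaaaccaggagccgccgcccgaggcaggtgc
Vgf (chr12:25276971-25277270): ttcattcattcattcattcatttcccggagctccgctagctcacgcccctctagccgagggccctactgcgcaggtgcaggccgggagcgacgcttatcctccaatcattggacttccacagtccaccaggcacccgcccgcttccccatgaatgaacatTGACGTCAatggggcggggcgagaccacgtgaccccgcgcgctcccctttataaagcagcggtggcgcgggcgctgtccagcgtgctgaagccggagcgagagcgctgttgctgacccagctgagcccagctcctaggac
The shortened form lay 66 bases before the start of Egr2 and 178 and 110 before that of Egr4, and the complete element lay 90 before that of Vgf. The Fosb window held neither. List genes with the complete element were Dusp1, Ier2, Jund, Maff, Crem, Plk2, Scg2 and Vgf. On their brightest probe sets none of them was at an unadjusted limma p under 0.05. Crem was higher at that threshold on other probe sets, and its brightest differed by 0.03 (SE 0.05). Searched on both strands, the complete element was in 1.83% of all 33469 promoters, in 4 of the 20 promoters of immediate early genes (20%), in 5 of the 20 of late activity-regulated genes (25%) and in 0 of the 32 of the 25 genes with the lowest p. The shortened form, which every complete element contains, was in 21.2% of all promoters, 65% and 55% of those of the lists and 18.8% of those of the 25 genes. The Egr binding letters GCGTGGGCG were in 0.544% of all promoters, in 2 of the 20 of immediate early genes and in 0 of the other sets. A promoter was found for 20 of the 28 immediate early genes, 13 of the 16 late genes and 22 of the 25 genes. Crh and Fos were among the genes without one, so whether they hold either element was not looked at. These shares describe the lists rather than what differed between the rats.

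Other immediate early genes differed by rat and by probe set. Fos, the most used marker of neuronal activity, had a lowest value of 5.72, a median of 7.07 and a highest of 8.50 in vehicle rats on the probe set 1375043_at, and 6.89, 7.88 and 9.24 in permethrin rats. That was 0.66 higher (SE 0.32, p = 0.0416), or 1.58-fold, with 6 of 8 permethrin rats above the vehicle mean and 1 above the highest vehicle rat. The brighter Fos probe set differed by 0.09 (SE 0.08, p = 0.289), so Fos does not count among the list's genes at an unadjusted p under 0.05. Egr1 was 0.27 higher (SE 0.14, p = 0.0669), by 0.07 in the first array group and 0.49 in the second. Nr4a3, an orphan nuclear receptor, was 0.26 higher on its brightest probe set (SE 0.14, p = 0.0664), with -0.10 and 0.57 within the array groups, and a test of that gap gave an unadjusted p of 0.00786. Over the list, 3 of 28 genes (Fosb, Egr2 and Egr4) were higher at an unadjusted p under 0.05 and 0 lower, with a median of 0.06 and 21 of 28 differences above 0, where 60.3% of all genes were above 0.

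Immediate early and late genes together gave 7 of 44 higher, again in lists chosen with earlier results of these data known. Without the 4 arrays that stood apart the numbers were 5 of 28 and 4 of 16, with 0.626% of all genes higher. Within the first array group 0 of 28 and 1 of 16 were higher (1.29% of all genes), and within the second 6 of 28 and 5 of 16 (0.816%). With the array group as a block they were 6 of 28 and 5 of 16 (2.33%). Across all probe sets, 0 differed between array groups in their change at an adjusted p under 0.05 and 651 (2.1%) did at an unadjusted p under 0.05.

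**Figure D2:**
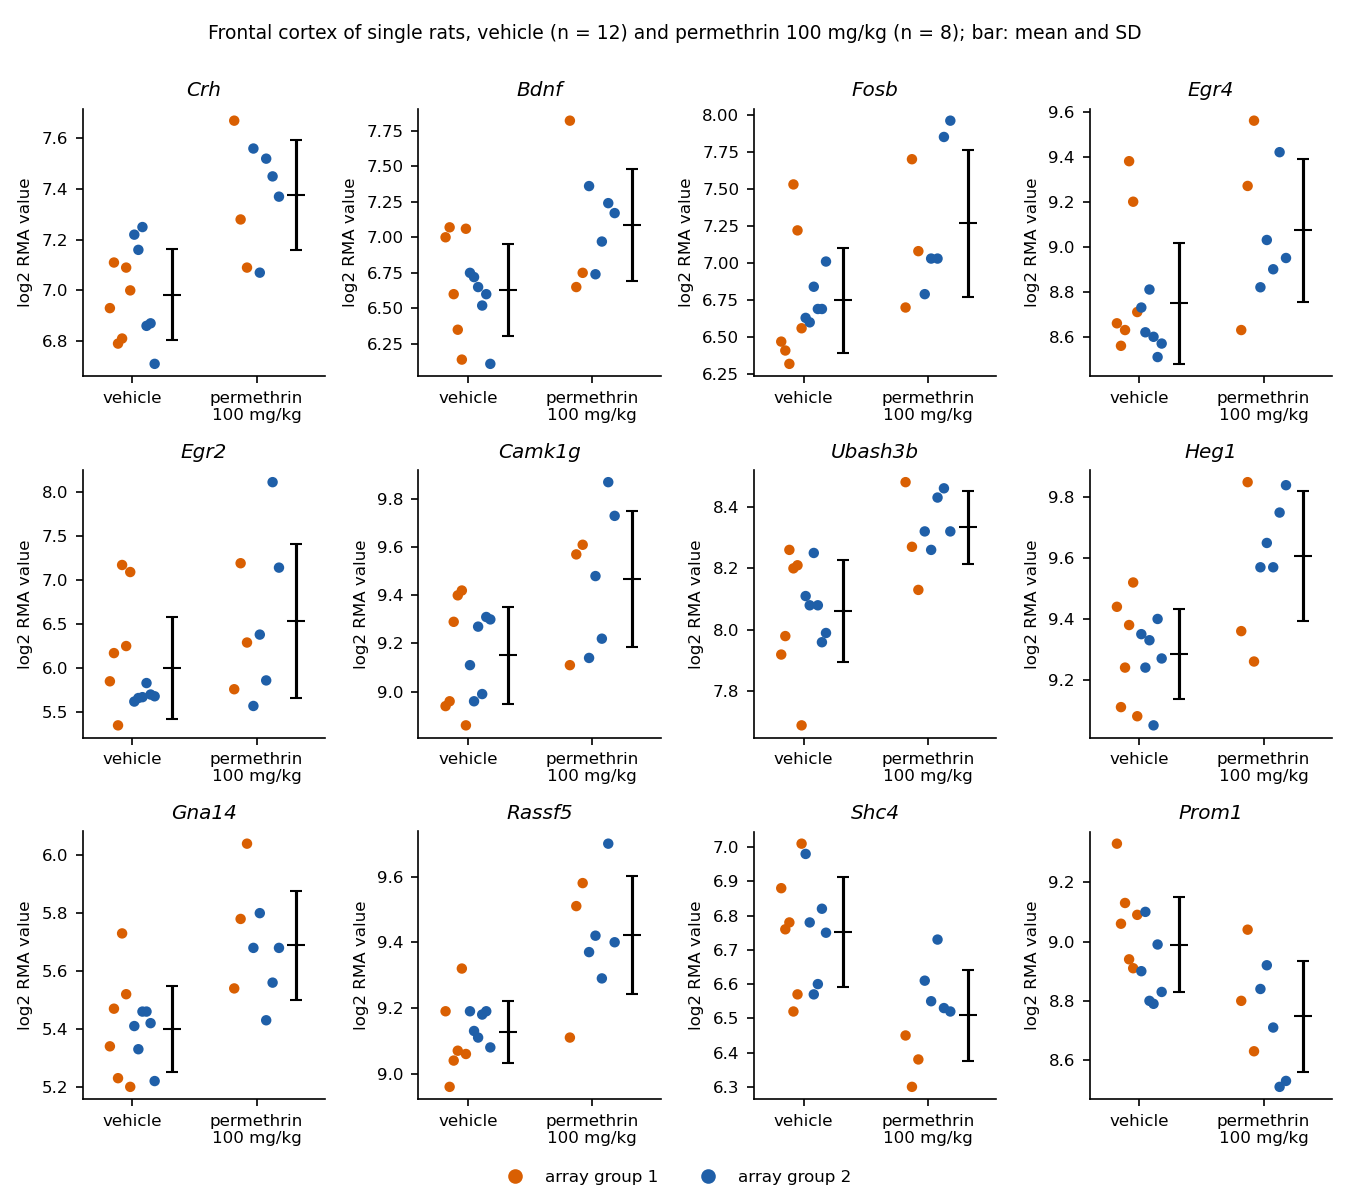
Each point is the log2 value (y axis) of 1 rat of the vehicle or permethrin 100 mg/kg group, each panel is a gene by its brightest probe set, and bars give the mean and SD. The values of Crh are 6.71 to 7.25 in vehicle rats and 7.07 to 7.67 in permethrin rats. Colours mark the array groups, and in every panel the groups of rats overlap.

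Set beside the lower permethrin doses, the differences of these genes from vehicle were smaller or went the other way. Crh was 0.04, 0.13 and 0.39 above vehicle at 1, 10 and 100 mg/kg. Bdnf was at -0.14, -0.13 and 0.46, and Fosb at -0.03, 0.24 and 0.52. Fos on 1375043_at was at -0.79, -0.72 and 0.66, that is below vehicle at both lower doses and above it only at the highest. Egr1 (-0.33, -0.16 and 0.27), Egr2 (-0.34, -0.18 and 0.53) and Nr4a3 (-0.34, -0.21 and 0.26) had the same order. Camk1g did not, at 0.20, 0.13 and 0.31. The medians of the lists at the 3 doses were -0.06, -0.02 and 0.06 for immediate early genes and -0.08, 0.00 and 0.05 for late genes. All 3 doses share the vehicle rats, so these values are not independent of each other.

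**Figure D3:**
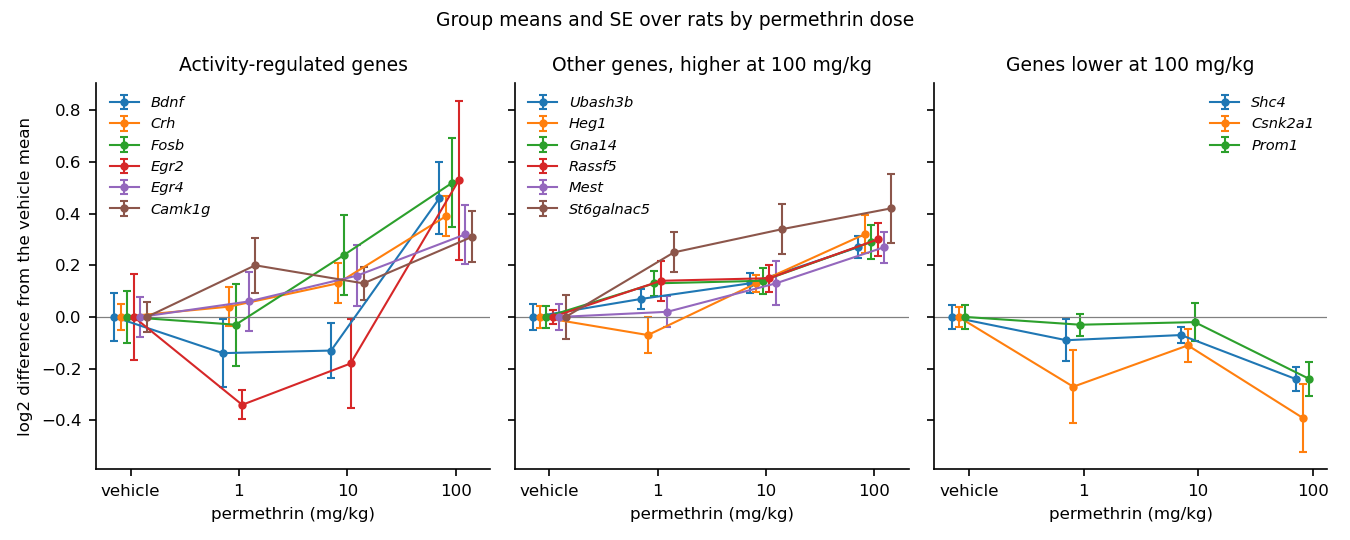
Mean log2 difference from the vehicle mean (y axis) by permethrin dose in mg/kg (x axis), with bars for the SE over 8 rats a dose (12 for vehicle); points are moved sideways so that bars can be told apart. Bdnf and Egr2 lie below 0 at 1 and 10 mg/kg and at 0.46 and 0.53 at 100 mg/kg, and Crh goes through 0.04 and 0.13 to 0.39.

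Compared directly with permethrin 10 mg/kg, which shares no control, 100 mg/kg gave 0 called probe sets (0%), 153 higher (0.493%) and 121 lower (0.390%) at an unadjusted p under 0.05. These counts also depended on the arrays. They were 47 and 210 within the first array group, 480 and 294 within the second, and 1134 and 452 with array weights. Without the 4 arrays they were 714 and 1812, a fit that keeps the 3 arrays of the 10 mg/kg group that lie high on the first component. Without all 13 such arrays of the series, they were 268 and 184. Fos on 1375043_at was 1.38 higher than at 10 mg/kg (p = 0.00021, limma adjusted p = 1), Bdnf 0.59 (p = 0.00044), Nr4a3 0.47 (p = 0.0035) and Egr1 0.43 (p = 0.0091). Among the immediate early genes 4 of 28 were higher than at 10 mg/kg (Egr1, Egr2, Nr4a3 and Klf4) and among the late genes 3 of 16 (Bdnf, Crh and Inhba), beside 0.387% of all genes. Without the 13 arrays 6 of 28 and 3 of 16 were higher, beside 0.781% of all genes. The differences then were 1.45 for Fos on 1375043_at, 0.64 for Bdnf, 0.75 for Nr4a3 and 0.61 for Egr1. Of the MAP kinase feedback genes, which dampen the pathway that induces them, 2 of 11 were (Dusp6 and Spry4).

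Over all genes, the 25 with the lowest p-values were 22 higher and 3 lower, with folds between 0.764 and 1.43, and Crh, Bdnf, Camk1g and Fosb were among them. They kept one sign in both array groups in 25 of 25, and 23 of 25 stayed at an unadjusted p under 0.05 without the 4 arrays that stood apart. As the genes were taken by their p, these counts describe the choice.

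Ubash3b, a phosphatase that restrains tyrosine kinase signalling, had the lowest p of the named genes. It ran over 7.69, 8.08 and 8.26 in vehicle rats and 8.13, 8.32 and 8.48 in permethrin rats, with 7 of 8 permethrin rats above the highest vehicle rat. The log2 difference was 0.27 (SE 0.06, p = 6.17e-05, limma adjusted p = 0.638), 0.26 on a second probe set and 0.00 on the third. Heg1, a membrane protein of endothelial junctions, ran over 9.05, 9.30 and 9.52 against 9.26, 9.61 and 9.85 and was 0.32 higher (SE 0.08, p = 0.000176, adjusted p = 0.803). Its other probe set was 0.27 higher. Gna14, an alpha subunit of the Gq family of G proteins, was 0.29 higher (SE 0.07, adjusted p = 0.803), with all 8 permethrin rats above the vehicle mean and 3 above the highest vehicle rat. Its second probe set differed by 0.06. Rassf5, a Ras and Rap effector, ran over 8.96, 9.12 and 9.32 against 9.11, 9.41 and 9.70, with a difference of 0.30 (SE 0.08, p = 0.000608, adjusted p = 1).

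The remaining higher genes had varied functions. St6galnac5, a sialyltransferase that builds gangliosides, was 0.42 higher (SE 0.13), and Mest, an imprinted gene expressed from the paternal allele, 0.27 (SE 0.08). Cxcl12, a chemokine that guides migrating cells, was higher by 0.35 on 1 probe set, 0.16 on its brightest and 0.13 on the third. Rimbp2, which tethers calcium channels at presynaptic active zones, was 0.21 higher (SE 0.07) on its brightest probe set, with medians of 10.68 in vehicle and 10.82 in permethrin rats and 2 of 8 permethrin rats above the highest vehicle rat. The other 3 Rimbp2 probe sets differed by 0.16, 0.08 and 0.00. Igfbp3, which binds insulin-like growth factors, was 0.17 higher (SE 0.06), and Med10, of the Mediator complex, 0.17 (SE 0.06). Narrow differences of 0.12 to 0.21 were measured for Tslp, Mepe, Klhl32, Prim2, Ptgs2os and LOC102550510. Pak1ip1 was 0.28 higher on one probe set and 0.11 on its brightest. Lysmd4 differed most between array groups, by 0.83 in the first and 0.05 in the second (interaction p = 0.00232, adjusted p = 0.975), and by -0.15 to 0.37 over its 4 probe sets.

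The 3 lower genes were Shc4, Prom1 and Csnk2a1. Shc4, an adaptor of receptor tyrosine kinases, ran over 6.52, 6.77 and 7.01 in vehicle rats and 6.30, 6.53 and 6.73 in permethrin rats, and all 8 were below the vehicle mean. The difference was -0.24 (SE 0.07, p = 0.000984), with -0.38 and -0.16 within the array groups. Prom1, a glycoprotein of membrane protrusions, differed by -0.24 (SE 0.08), with 4 of 8 permethrin rats below every vehicle rat. Csnk2a1, the catalytic subunit of casein kinase 2, differed by -0.39 (SE 0.13) on 1 of its 5 probe sets, and the other probe sets ran from -0.12 to 0.06.

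The lowest p of all belonged to probe sets without a gene symbol in the annotation used here. The first, 1393119_at, ran over 8.11, 8.52 and 8.85 in vehicle rats and 8.48, 9.01 and 9.80 in permethrin rats, and was 0.56 higher (SE 0.12, p = 1.57e-05, limma adjusted p = 0.486). The next, 1373035_at, ran over 8.02, 8.45 and 8.93 against 8.50, 9.0 and 9.57 and was 0.52 higher (SE 0.11, adjusted p = 0.502). On both, every permethrin rat was above the vehicle mean. At 1 and 10 mg/kg the first was at -0.18 and -0.01 relative to vehicle and the second at -0.01 and 0.18.

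**Figure D4:**
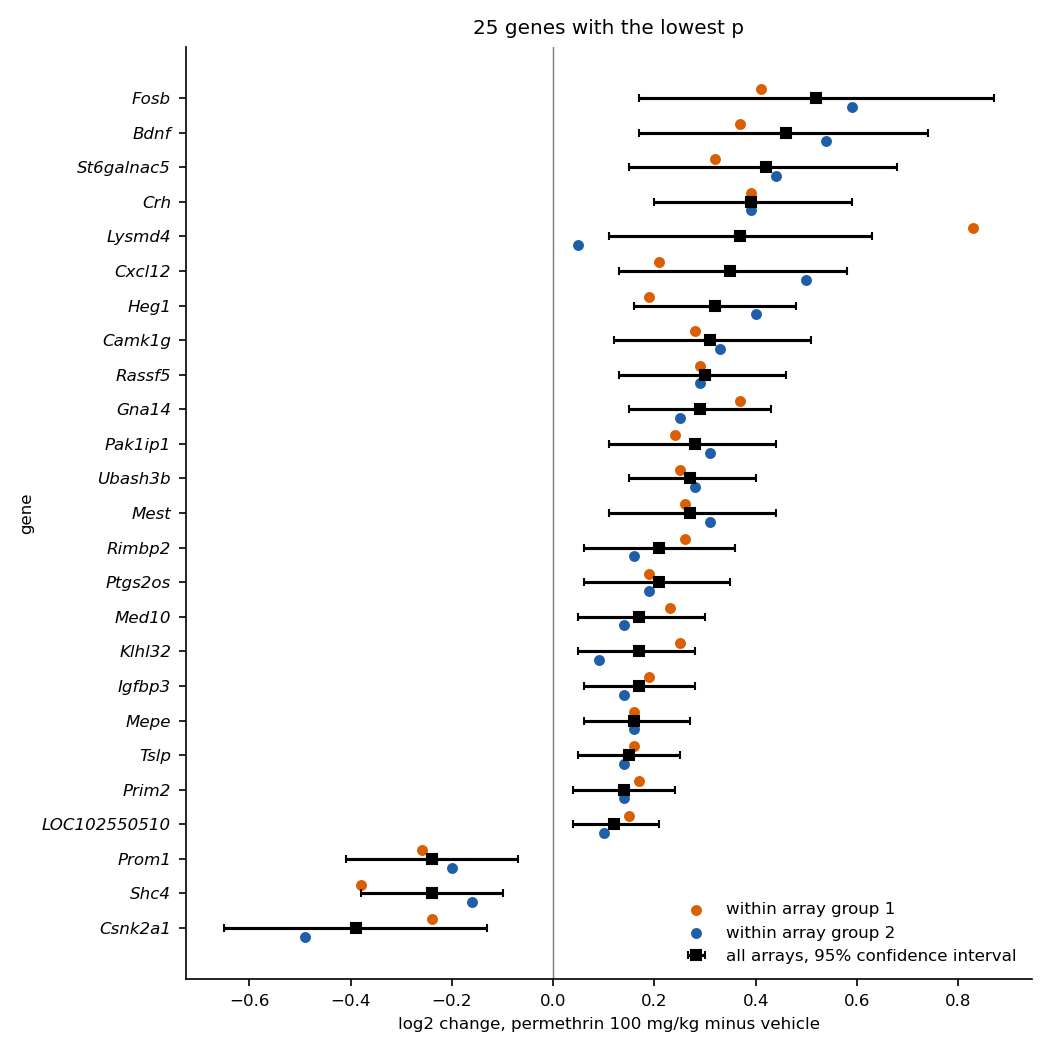
Log2 differences between permethrin 100 mg/kg and vehicle (x axis) with 95% intervals (black squares and bars) for the probe set with the lowest p of each of 25 genes (y axis), chosen for their p, with the values within each array group in colour. Of the 25, 22 lie to the right of 0 and 3 to the left.

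The ion channels and receptors on which pyrethroids act or which carry cortical excitation had 1 member at an unadjusted p under 0.05, in lists of 9 to 27 genes where 1.03% of all genes were higher and 0.204% lower, so that short lists with 0 members are no result. The list of voltage-sensitive sodium channels had 12 genes, among them Scn7a, the sodium leak channel Nalcn and beta subunits. Of these 12, 0 were higher and 0 lower at an unadjusted p under 0.05, and the median was -0.02. The neuronal alpha subunits Scn1a, Scn2a and Scn8a differed by -0.21 (SE 0.27), -0.18 (SE 0.27) and -0.15 (SE 0.11), and the beta subunit Scn2b by 0.12 (SE 0.08). Of 20 calcium channel genes 1 was lower, Cacng8, an AMPA receptor auxiliary subunit, at -0.35 (SE 0.15, p = 0.0261). That difference was -0.66 and -0.14 within the array groups and -0.09 without the 4 arrays that stood apart. Of 27 potassium and HCN channel genes 0 were at that threshold in either direction, with a median of -0.04, and 24 differences lay below 0, as 39.7% of those of all genes did. Without the 4 arrays that stood apart 19 lay below 0, and 47.4% of all genes. Glutamate receptors (21 genes, median -0.04), GABA receptors (11 genes, median -0.05) and chloride channels and cotransporters (9 genes) had 0 members at the threshold.

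At an unadjusted p under 0.05, where 1.03% of all genes were higher and 0.204% lower, stress, transport and other pathways gave few members. Of 15 endoplasmic reticulum stress genes 1 was higher, Xbp1, the transcription factor of the unfolded protein response, by 0.26 (SE 0.10, p = 0.0125). The list's median was 0.13, with 12 of 15 differences above 0, beside 0.02 and 60.3% for all genes. Without the 4 arrays that stood apart it was 0.10 with 13 above 0, beside 0.00 and 52.6% for all genes. Hspa5, the chaperone BiP of that compartment, was 0.21 higher (SE 0.12, p = 0.0733) and Manf 0.16 (SE 0.09, p = 0.0996). At 1 and 10 mg/kg the list's medians were -0.05 and 0.10, and at deltamethrin 3 mg/kg 0.10. Among 12 heat shock genes Hspb1, a small heat shock protein, was 0.36 higher (SE 0.15, p = 0.0207) and Dnajb5, a cochaperone, 0.19 (SE 0.09, p = 0.0452). Hspb1 was 0.66 higher in the first array group and 0.15 in the second.

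Of 11 MAP kinase feedback genes 1 was higher, Spry2, an inhibitor of receptor tyrosine kinase signalling, by 0.16 (SE 0.07, p = 0.0199). Of 23 branching and guidance genes 1 was higher, Cxcl12, and 1 lower, Vegfa, a growth factor of vessels, at -0.24 (SE 0.12, p = 0.0416). Ctnnb1, the beta-catenin gene that the study named for branching, differed by 0.03 (SE 0.11) on its brightest probe set. It was higher at that threshold on another. Of 17 metal transport and storage genes 1 was lower, Slc39a8, a zinc and manganese importer, at -0.14 (SE 0.06, p = 0.0224). Slc40a1, the iron exporter ferroportin, was at -0.11 (SE 0.07) on its brightest probe set and -0.17 on another. The lists of glucocorticoid-responsive genes (21), monocarboxylate and thyroid hormone transporters (11), monoamine genes (11), circadian clock genes (16) and xenobiotic and oxidative metabolism (21) had 0 members at an unadjusted p under 0.05. Among them Tsc22d3, a glucocorticoid-induced leucine zipper protein, was 0.17 higher (SE 0.09, p = 0.0646), and Bhlhe40, a repressor within the clock, was 0.39 higher (SE 0.21, p = 0.0728). Over the 308 genes of all pathway lists, 15 were at the threshold in either direction, where 1.24% of all genes were.

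**Figure D5:**
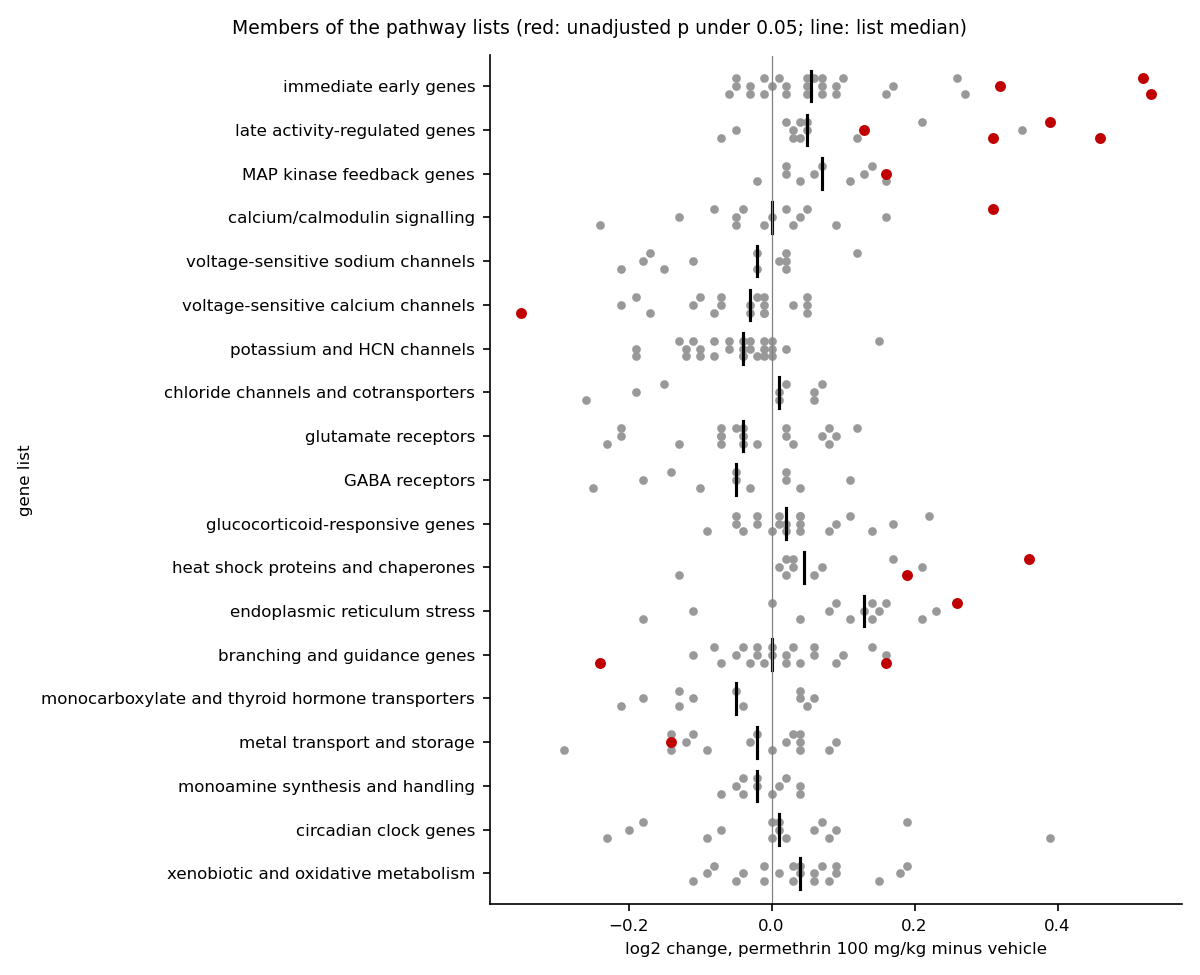
Log2 differences between permethrin 100 mg/kg and vehicle (x axis) of the members of each gene list (y axis), each gene by its brightest probe set, with red points for members at an unadjusted limma p under 0.05 and a line at each list's median. The immediate early and late activity-regulated lists have 3 and 4 red points, and the sodium channel list has 0.

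Markers of cortical cell types were at overlapping levels in both groups, but the differences of the oligodendrocyte and inhibitory neuron lists mostly shared a sign. Mean values over excitatory neuron markers were 9.21 to 9.60 in vehicle rats and 9.31 to 9.64 in permethrin rats, and those over oligodendrocyte markers 10.58 to 11.10 and 10.57 to 10.90. Markers of choroid plexus, a tissue next to but not of the cortex, reached 8.92 in vehicle replicate 11 and otherwise overlapped, at 7.20 to 7.76 in permethrin rats. At an unadjusted p under 0.05, where 1.03% of all genes were higher and 0.204% lower, 1 of 13 endothelial and mural genes was higher (Heg1) and 1 lower, Abcb1a, the P-glycoprotein pump of the blood-brain barrier, at -0.36 (SE 0.15, p = 0.0177). Of 11 inhibitory neuron genes 1 was higher, Cck, a neuropeptide, by 0.10 (SE 0.04, p = 0.036). By brightest probe sets, the other marker lists had 0 members at an unadjusted p under 0.05. On other probe sets Ermn (oligodendrocytes) and Rgs9 (striatal neurons) were lower at that threshold and Olig2 (oligodendrocyte precursors) was higher. Among 11 oligodendrocyte genes 10 differences lay below 0 (median -0.09), as 39.7% of those of all genes did. Without the arrays that stood apart 10 did again, beside 47.4% of all genes, and within each array group 7 did. Among the 11 inhibitory neuron genes 9 lay above 0 (median 0.09), beside 60.3% of all genes. Within each array group 8 did. These counts were not tested.

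Beside deltamethrin, the pyrethroid with the alpha-cyano group, the highest doses differed in mg/kg, so the values are set side by side. The study also assigned permethrin 100 mg/kg a higher effect level on behaviour than deltamethrin 3 mg/kg. Compound and effect level therefore cannot be told apart here. Relative to vehicle, Crh was 0.39 higher at permethrin 100 mg/kg and 0.38 at deltamethrin 3 mg/kg, Heg1 0.32 and 0.31, Camk1g 0.31 and 0.39, and Fosb 0.52 and 0.45. Fos on 1375043_at was at 0.66 and -0.38, Egr2 at 0.53 and -0.24, and Bdnf at 0.46 and 0.23. Gpd1 and Fkbp5, both induced by glucocorticoids, were at 0.22 and 0.11 after permethrin and at 0.99 and 0.49 after deltamethrin. The fit gave 0 called probe sets (0%) between these groups, with 180 higher (0.580%) and 69 lower (0.222%) after permethrin at an unadjusted p under 0.05. That split turned with the processing, to 294 higher and 385 lower without the 4 arrays, 292 and 415 within the second array group, 639 and 705 with array weights, and 351 and 906 without the 13 arrays high on the first component in any group. The last fit called 1 probe set, of the small heat shock protein Cryab, at -0.49. Among immediate early genes 4 of 28 were higher after permethrin (Egr2, Nr4a1, Ier5 and Klf4), and among 21 glucocorticoid-responsive genes 3 were lower (Fkbp5, Gpd1 and Mt2A), beside 0.485% of all genes higher and 0.141% lower. Without the 13 arrays 3 of 28 were higher and 5 of 21 lower, beside 0.816% and 4.11% of all genes.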

How the data were processed

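RNA from the frontal cortex of 60 rats was hybridised to Affymetrix Rat 230 2.0 arrays, 1 per rat. The authors deposited 1 table of log2 values made by RMA (background correction, quantile normalization and summary per probe set; run in RMAExpress, per the study's methods), which narrows differences between arrays and keeps no depth. The number of arrays limits the precision. Groups came from the sample titles. Of 31042 probe sets, 20826 had 1 symbol (14217 genes), 436 several and 9780 none.

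limma 3.58.1 (R 4.3.3) was fitted to all 60 arrays with a mean per treatment group, followed by eBayes. Tests were two-sided, and p-values were adjusted by Benjamini-Hochberg over the whole table, with a threshold of 0.05. The fit was tested on simulated data. No filter was applied. Tables and figures used Python 3.11.15, pandas 2.3.3, scipy 1.17.1 and matplotlib 3.10.9. Named genes were the 25 with the lowest p, 5 unnamed probe sets, list members at an unadjusted p under 0.05 and genes the study had chosen on these arrays. Gene lists used the brightest probe set of each gene and were described by counts. The members and lists were chosen with earlier results of these data known. Promoters came from RefSeq (GRCr8). Alternatives were array group, first principal component, replicate number, array weights, fewer arrays or probe sets, median centring, Dunnett's test and leaving out each rat. Replicate numbers shared between groups did not pair rats.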

Additional observations from a re-analysis of the deposited data

Results flagged for a closer look

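Among the named probe sets, 61 sets of 8 permethrin rats were checked for a rat far from the others, of which chance marks about 1 in 20, and 4 were found, each with a gap over the range above 0.526. On the dimmer Heg1 probe set, permethrin replicate 2 had 8.91, with the next rat at 8.47. On Prim2 the same rat had 7.24, with the next at 6.98. This rat is one of the 4 whose arrays stood apart on the first component, and without them the differences were 0.22 for that Heg1 probe set and 0.12 for Prim2. On St6galnac5, permethrin replicate 1 was lowest at 6.96, with the next at 7.64, and on the brighter Slc40a1 probe set it was lowest at 8.10, with the next at 8.42.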

How the results depend on the processing

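Numbers of probe sets called in place of 0 were 1 with the array group as a block and the first principal component as a covariate, 10 with array weights, and 2 with array weights and the block. The first was Bdnf (0.60). The 10 were 8 higher, among them the unnamed 1393119_at (0.69), Ubash3b (0.32), Heg1 (0.37) and Gna14 (0.28), and 2 lower, Csnk2a1 (-0.56) and the unnamed 1395197_at (-0.26). The 2 were the unnamed 1393119_at and 1373035_at. Against permethrin 10 mg/kg these settings called 1, 9 and 9, and against deltamethrin 3 mg/kg the first called 1 (Cryab), as did leaving out the 13 arrays high on the first component in any group. Higher and lower probe sets at an unadjusted p under 0.05, 274 and 110, became 533 and 254 with the block, 524 and 367 with the component, 602 and 523 with both, 1652 and 1000 with array weights, 1025 and 607 with weights and block, 138 and 31 among the probe sets brighter than the median, 346 and 70 with arrays centred on their medians, 178 higher with the 20 arrays alone, 182 higher without the 4 arrays that stood apart, 191 lower within the first array group, 174 lower within the second, and 85 and 22 with Dunnett's test, which called 0. Leaving out 1 rat gave 190 to 727 higher and 83 to 230 lower, with the highest of both without permethrin replicate 1. Without vehicle replicate 4 they were 432 and 179, and 187 lower without vehicle replicate 7 and 174 lower without permethrin replicate 2. With the replicate number as a block they were 1327 and 609, with 0 called, but deviations of rats with one number correlated between -0.784 and 0.712, and 1 of 8 pairs was over 0.1, so the numbers do not pair the rats.

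Of the 44 immediate early and late genes, 7 higher became 11 with the block, 15 with block and component, 13 with weights and block, 1 and 11 within the array groups, 3 among the brighter probe sets, 12 by any probe set, 6 by the brightest probe set in vehicle rats, and 6 to 9 without 1 rat. Of the 308 pathway genes, 15 became 24 with the block, 23 with the component, 37 with both, 35 with weights, 32 with weights and block, 5 within the first array group, 24 with the replicate block, 9 among the brighter probe sets, 24 by any probe set, 5 with Dunnett's test and 8 to 20 without 1 rat, lowest without permethrin replicate 3. Over 61 named probe sets and 2177 alternative values, 2165 kept direction and side of the threshold, 11 passed it and 1 reversed, Nr4a3 within the first array group (-0.10). Many of these probe sets were named for their low p, none was called in the main fit, and many alternatives left out only 1 rat. These counts are therefore largely fixed by the choice and are not a test. Weights with the block, leaving out the 4 or 13 arrays, and the brightest probe set in vehicle rats were chosen after seeing the data. The shares over all genes moved as well. Those higher were 1.03% in the main fit, 2.33% with the block, and 1.29% and 0.816% within the array groups. Over all 31042 probe sets, 274 higher and 110 lower became 1652 and 1000 with weights and 1327 and 609 with the replicate block. A larger count of list members is therefore not by itself a stronger result for the list. The cause of these shifts was not tested.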

Other observations

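The widest differences had wide spreads between rats. The unnamed 1386855_at had a lowest value of 6.45, a median of 8.16 and a highest of 9.27 in vehicle rats and a median of 7.00 in permethrin rats, a log2 difference of -0.89 (SE 0.35, unadjusted p = 0.0143, limma adjusted p = 1). Ttr, the transthyretin gene of the choroid plexus, differed by -0.76 (SE 0.74) and by -0.38 without vehicle replicate 11, which stood at 13.56. Of the widest differences above 0, the unnamed 1378866_at was 0.60 above vehicle (SE 0.20, p = 0.00396, limma adjusted p = 1). Among smaller differences, Ermn, a myelin protein of oligodendrocytes, differed by -0.40 (SE 0.31, p = 0.203) on its brightest probe set. Its 3 probe sets ran from -0.40 to -0.33, and 1 of them was at an unadjusted p under 0.05.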
